A study of Gasterosteus aculeatus with 31 samples.

Results

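Chromatin accessibility of the left brain was compared with that of the right brain in juvenile threespine stickleback (Gasterosteus aculeatus), a small fish whose males care for the young. All 31 ATAC-seq libraries of the series were used, each from 1 fish and 1 side, so that 13 left libraries were set against 18 right libraries of other fish. The members were chosen by the brain side in the library title. The father-reared fish (labelled Day 10) gave 8 left and 8 right libraries, and the orphaned fish (labelled Day 0, raised by hand without a father) gave 5 left and 10 right ones. Among the left fish 5 were male and 8 female, and among the right fish 10 were male and 8 female. Every fish was 6 to 8 months old, came from the same half-sibling breeding design with wild-caught fathers from Putah Creek, and was sampled 60 minutes after a model sculpin had simulated an attack. No fish without that attack was included, so each value describes a brain shortly after it. Because no fish gave both sides, a side difference here is a difference between fish. Nothing in the labels says why the left brain was taken from some fish and the right from others.

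ATAC-seq uses the transposase Tn5, which inserts sequencing adapters into DNA that is not wrapped tightly in nucleosomes, so that the reads gathered in a peak measure how open that stretch is. In vertebrate embryos, signals of the Nodal family act on the left of the body and set the asymmetry of the heart and gut. In the zebrafish the same pathway directs the parapineal organ to the left of the epithalamus, and the left and right habenulae, which relay forebrain signals to the midbrain, then differ in their neurons and gene expression. Most other brain regions are built as mirror images, and a library of a whole brain side mixes all of them.

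The peaks carry no gene names and no source used here gives their genome build, so peaks are named by sequence, start and stop as deposited, and neither the brain label nor the left-right genes of the zebrafish were checked against genes. Libraries held 2857578 to 10540612 counts in 102149 peaks, left ones 2857578 to 10540612 and right ones 3192015 to 6076201, and the median peak held 20 to 73 counts. The filter on low counts kept 100808 peaks. Any pair of libraries correlated between 0.775 and 0.926 across peaks on the log2 scale, and no pair was identical. At a small set of peaks 5 right libraries stood far above all others, and counts are given with and without them. Whether fewer open cells of a type or less open chromatin per cell lies behind a lower value cannot be told apart in such tissue libraries.

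No peak passed the test between the left and right brain when fish were taken as independent. Fits blocked by the family number inferred from the fish identifiers did call peaks, and are given among the alternatives. With sex and care as covariates, edgeR's quasi-likelihood test called 0 of 100808 peaks (0%) at a Benjamini-Hochberg adjusted p below 0.05, and the lowest adjusted p was 0.989. At an unadjusted p below 0.05 there were 4089 peaks (4.06%), of which 2157 (2.14% of those tested) had the higher value on the left and 1932 on the right. DESeq2 also called 0 peaks and had 3986 at an unadjusted p below 0.05. The typical difference was small, with a median size of 0.08 on the log2 scale. The 95% interval of the difference reached a median of 0.22 log2 units to either side of the estimate. For 98.5% of the peaks this interval lay wholly within a 1.5-fold difference, and for 99.9% within a 2-fold difference. A narrower band of 1.25-fold held the interval of 61% of the peaks. Differences larger than 1.5-fold were thus outside the intervals of nearly all single peaks, whereas the intervals do not exclude all smaller ones.

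**Figure D1:**
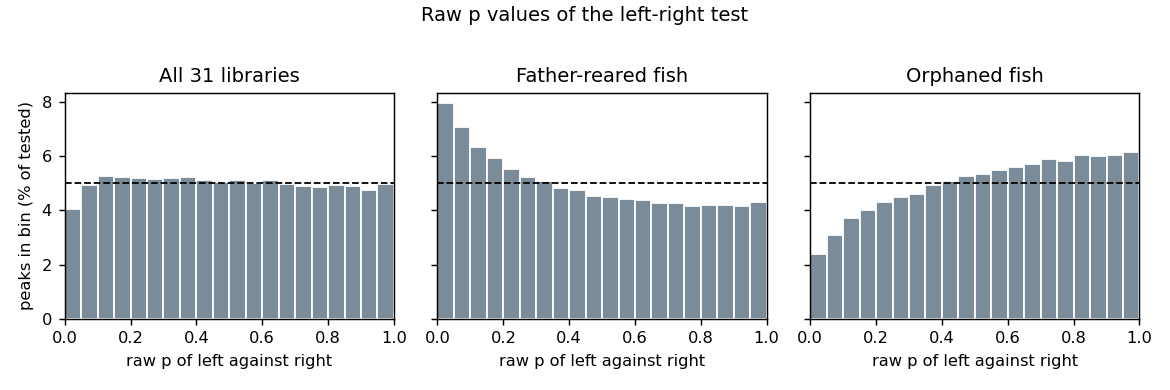
Share of the tested peaks (y axis, percent) in 20 equal bins of the unadjusted p of left against right (x axis), for all 31 libraries, for father-reared and for orphaned fish. The dashed line marks 5%, the height of every bin if p values were spread evenly. The first bin held 4.06% of the peaks in all libraries, 7.94% in father-reared fish and 2.4% in orphaned fish.

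The peak with the lowest unadjusted p lay on groupXIII at 15063779 to 15064179. Left libraries there held 6.92 to 10.4 CPM (counts per library scaled by TMM to a common size; median 8.42) and right libraries 2.98 to 8.43 (median 6.67). The ranges overlapped, but all 13 left values stood above the median of the right ones. Its means were 8.42 ± 1.14 (SD, n = 13) on the left and 6.28 ± 1.49 (SD, n = 18) on the right, and the left was higher by 0.45 on the log2 scale (standard error, SE, 0.10; edgeR adjusted p 0.989). In orphaned fish the 5 left values were 9.09, 7.28, 10.3, 8.82 and 7.27 CPM, against 5.9 to 8.43 in the 10 right fish. Father-reared left fish held 6.92 to 10.4 CPM and right ones 2.98 to 7.59. The 2 care groups thus overlapped between sides as well.

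At the groupIV peak at 13022725 to 13023125, left libraries held 6.59 to 10.8 CPM (median 8.22) and right ones 4.13 to 7.9 (median 6.57). Here too 13 of 13 left values exceeded the right median. The log2 difference was 0.39 (SE 0.10, edgeR adjusted p 0.989). The groupII peak at 15664949 to 15665349 had the opposite sign, with 4.15 to 6.41 CPM on the left (median 5.14) and 4.56 to 10.2 on the right (median 6.72). None of the 13 left values exceeded the right median, and the log2 difference was -0.42 (SE 0.11, edgeR adjusted p 0.989).

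The scaffold_54 peak at 1119512 held 7.3 to 14.1 CPM on the left (median 10.4) and 2.32 to 11.0 on the right (median 7.81), a log2 difference of 0.52 (SE 0.13). Its 5 left orphaned values were 10.1, 12.5, 11.5, 11.5 and 9.54 CPM, against 3.13 to 11.0 in the 10 right orphaned fish, so these groups overlapped. At the groupVI peak at 13366082 the left held 5.19 to 12.8 CPM (median 7.29) and the right 7.75 to 13.6 (median 10.6), a log2 difference of -0.40 (SE 0.10). Left orphaned replicate 4 held 12.8 CPM there, and the other 4 left orphaned fish held 5.95 to 7.5.

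The other 5 of the 10 peaks with the lowest unadjusted p were on scaffold_1240 at 3458, groupXIX at 12988619, scaffold_178 at 33569, scaffold_61 at 935987 and groupIV at 228740. Their log2 differences were -1.57, -0.51, 0.63, 0.70 and -0.51, all with an edgeR adjusted p of 0.989. At the scaffold_61 peak the left orphaned fish held 12.6, 15.0, 10.8, 8.28 and 2.73 CPM, and the right orphaned fish 3.13 to 8.24. Of those left values 3, counted after they were seen, exceeded 8.82 CPM, the highest left father-reared value. The scaffold_1240 peak was weak, at 0 to 2.01 CPM on the left (median 0.87) and 0.36 to 11.9 on the right (median 1.71), and its highest value came from right father-reared replicate 5. All 10 peaks had the same sign in both care groups, which is no independent support because both groups entered the choice.

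**Figure D2:**
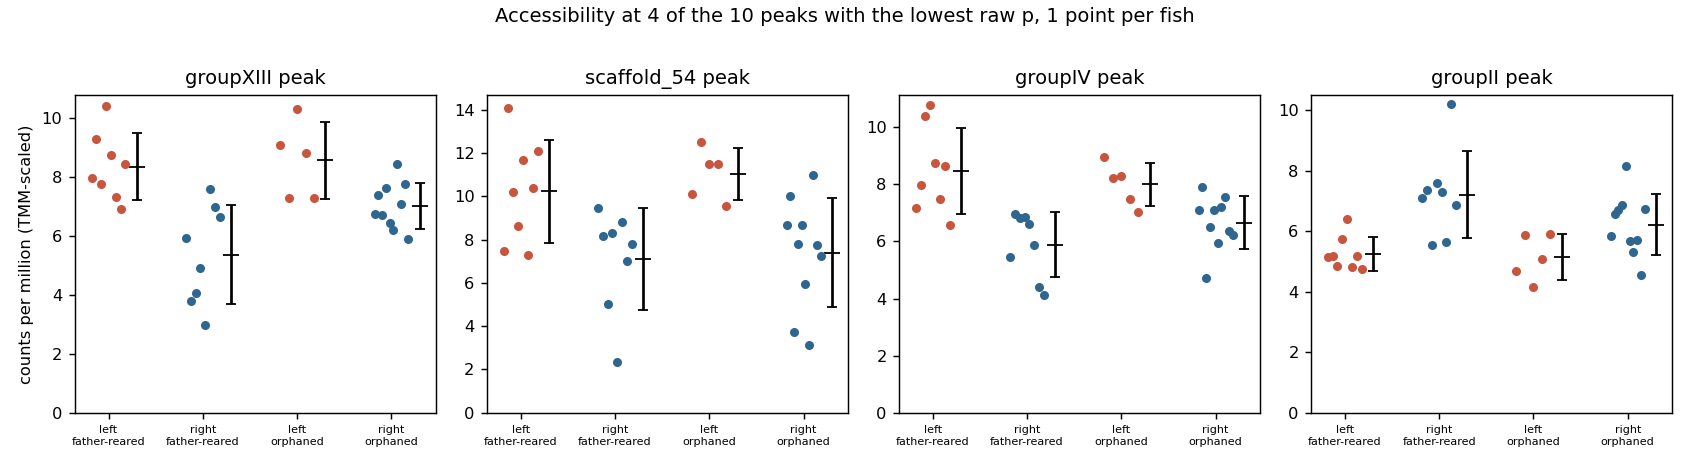
Accessibility (y axis, TMM-scaled CPM) at the groupXIII, scaffold_54, groupIV and groupII peaks, with 1 point per fish in the 4 side-by-care groups (x axis) and black bars for mean ± SD. Left values (red) run from 6.92 to 10.4 at groupXIII against 2.98 to 8.43 on the right (blue), and sides overlap in all 4 panels.

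Of the 5 peaks with the lowest log2 differences, 4 had high values in the same 5 of the 18 right libraries. Among peaks with a mean of at least 1 CPM and an unadjusted p below 0.05, the lowest log2 differences were at scaffold_95 143379 (-2.16), scaffold_95 140288 (-2.13), scaffold_61 897443 (-1.93), scaffold_1240 3458 (-1.57) and groupVII 10558814 (-1.30). At scaffold_95 140288, right father-reared replicate 2 held 192 CPM, and right orphaned replicates 4, 7, 9 and 10 held 189, 258, 327 and 510 CPM. The other 13 right libraries held 3.31 to 25.7 CPM there (median 10.4). Left libraries held 3.47 to 27.1 CPM (median 15.9), among them the orphaned ones with 18.4, 16.0, 11.0, 3.47 and 6.82. Thus the 5 right libraries stood above the 26 others without overlap, while the other right libraries spanned nearly the same range as the left.

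The same 5 libraries were highest at scaffold_61 897443, with 101, 103, 154, 185 and 273 CPM in the order given above. There the other right libraries held 2.65 to 15.6 CPM and the left ones 4.27 to 15.2. At groupVII 10558814 they held 17.1, 16.8, 20.1, 26.3 and 35.8 CPM, against 0.46 to 3.78 in the other right libraries and 2.13 to 5.56 in the left ones. The peak on groupIX at 15811710 was the strongest of this kind on a linkage group, with 149, 145, 210, 247 and 324 CPM in the 5 libraries, 17.3 to 56.8 in the other right ones and 17.9 to 60.9 in the left ones. It was named for that strength after its values were seen.

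In all, 24 tested peaks correlated at r of 0.8 or more with scaffold_95 140288 across the 31 libraries on the log2 CPM scale, itself included. Of these, 10 lay on groupIX, which holds 4756 of the 100808 tested peaks, 7 on other linkage groups and 7 on scaffolds. In 23 of them the 5 libraries exceeded the other 26. The 5 libraries were those above 100 CPM at scaffold_95 140288, which also served to choose the 24 peaks. The 23 thus follow largely from the choice. Of all 100808 tested peaks, 30 had the 5 libraries above the rest, of which 15 lay on groupIX. The 5 fish share no label beyond the right side, since 1 was father-reared and 4 orphaned, 3 were male and 2 female, and their library numbers were 5, 12, 19, 29 and 30. Orphaned replicates 9 and 10 carry the same leading number (39) in their fish identifiers, which was read here as a family.

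The remaining peak of that list, scaffold_1240 3458, was highest in right father-reared replicates 5 (11.9 CPM) and 4 (5.38 CPM), which are not among the 5, and was not tested without them because it then fell under the filter on low counts. At the other 4 of the lowest log2 differences the sign turned without the 5 libraries. The 5 are all right libraries, picked for high counts at scaffold_95 140288. A rise of left minus right there and at peaks that correlate with it thus follows from the choice. The pooled log2 difference became 0.32 at scaffold_95 140288, 0.29 at scaffold_95 143379, 0.25 at scaffold_61 897443 and 0.15 at groupVII 10558814, with edgeR adjusted p values of 0.952 to 0.963. Still edgeR called 0 peaks, with 4808 (4.77%) at an unadjusted p below 0.05 and a lowest adjusted p of 0.179. Without them the unadjusted counts were 6928 (6.87%) in father-reared fish, 2652 (2.63%) in orphaned fish, 4261 (4.22%) for side by care and 3486 (3.46%) for side by sex, again with 0 called in each. This split of the right libraries was seen in the data and is in no label, so no test was made of it.

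**Figure D3:**
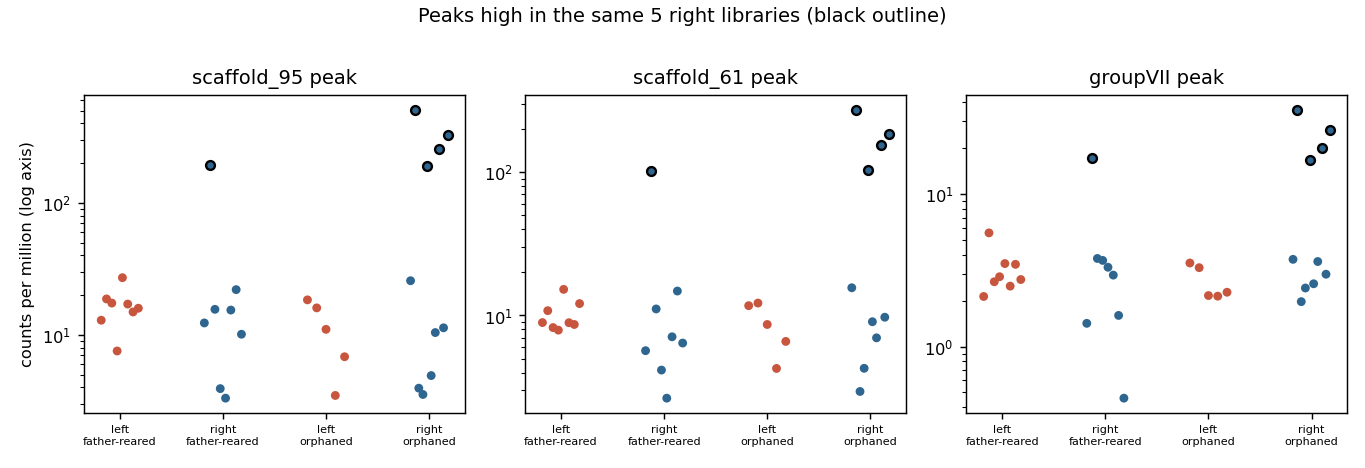
Accessibility (y axis, TMM-scaled CPM, log axis) at the scaffold_95 peak starting at 140288, the scaffold_61 peak starting at 897443 and the groupVII peak, with 1 point per fish in the 4 side-by-care groups (x axis). The 5 outlined right libraries hold 189 to 510 CPM in the first panel, and the other 26 libraries, left in red and right in blue, hold 3.31 to 27.1.

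On the other side of the scale, the highest log2 differences were at groupVI 8283400 (1.06), scaffold_278 47872 (0.93), groupXIV 13106624 (0.83), scaffold_305 25288 (0.75) and groupIV 23076386 (0.74). All 5 were weak peaks. At groupVI 8283400 the left held 0 to 4.08 CPM (median 2.04) and the right 0 to 3.37 (median 0.67), and at groupXIV 13106624 the left held 0 to 9.69 (median 4.63) and the right 0 to 8.52 (median 4.09). Fish of either side were thus at 0 at both peaks, and their adjusted p by edgeR was 0.989.

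Within father-reared fish, 8 against 8, edgeR again called 0 peaks (0%), with a lowest adjusted p of 0.597, and DESeq2 called 0 with a lowest of 0.274. The share at an unadjusted p below 0.05 was 7.94% (8004 peaks), with 3842 (3.81% of those tested) higher and 4162 lower on the left. DESeq2 had 7801 such peaks. Intervals were wider than in the pooled test, and 85.2% of the peaks had theirs within a 1.5-fold difference. In 25 peaks (0.0248%) the 8 left and 8 right values did not overlap.

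The lowest unadjusted p in father-reared fish was at groupXIV 11217387, with 3.87 to 8.75 CPM in left fish (median 7.78) and 8.07 to 12.9 in right fish (median 11.1). The ranges met only between 8.07 and 8.75 CPM, and the left minus right value was -0.65 (log2; SE 0.13; adjusted p by edgeR 0.597). In orphaned fish the same peak held 7.48 to 9.85 CPM on the left and 8.01 to 11.5 on the right, a log2 difference of -0.09 (SE 0.14).

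At groupXVII 7304008 the 8 left father-reared fish held 3.46 to 7.54 CPM (median 4.91) and the 8 right ones 1.47 to 3.18 (median 2.88), so that the groups did not overlap. Its log2 difference was 0.99 (SE 0.22, edgeR adjusted p 0.597), and in orphaned fish -0.05 (SE 0.22). A similar gap was seen at groupVIII 11062354, where the left held 5.74 to 9.08 CPM and the right 3.31 to 4.9, a log2 difference of 0.69 (SE 0.16). The remaining 2 of the 5 peaks, groupI 8129313 and groupXV 15685830, had log2 differences of 0.97 and 0.86 and overlapping groups.

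The father-reared differences varied with the strength of the peak. Sorted by mean CPM into 10 equal classes, the median left minus right value was 0.08 log2 units in the weakest peaks (mean 4.34 CPM) and -0.17 in the strongest (mean 30.3 CPM). In the strongest class 1544 of 10081 peaks had an unadjusted p below 0.05, of which 52 were higher on the left. The weakest class had 661 of 10080, of which 543 were higher on the left. Over all tested peaks the share was 7.94%. In orphaned fish the class medians stayed between -0.01 and 0.01, and in the pooled comparison they ran from 0.04 to -0.09.

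Put per library, the strongest 10% of the peaks took 30.0% ± 3.53 (SD, n = 8) of the counts in left and 32.7% ± 3.32 (SD, n = 8) in right father-reared fish. That difference did not pass, at -2.63 percentage points with sex as stratum (exact permutation test, two-sided, p = 0.175, adjusted p = 0.561 over 9 measures). When each library's trend with peak strength was removed, the median of the strongest class became -0.01, which follows from the removal itself. After it 6715 peaks (6.66%) were at an unadjusted p below 0.05, with 0 called. The direction of the counts varied with the scaling in the same edgeR fit. Without scaling factors 5653 of 8400 such peaks (67.3%) were higher on the left, with RLE size factors 3363 of 8099 (41.5%), and with TMM 48%. In the pooled comparison those shares were 70.1%, 49.5% and 52.8%. DESeq2, another model, had 39% in father-reared fish and 48.4% in the pooled comparison.

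**Figure D4:**
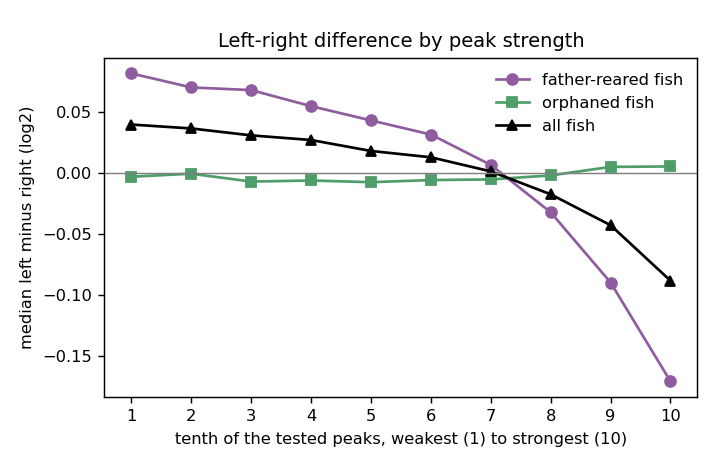
Median left minus right difference (y axis, log2) in 10 classes of the tested peaks by mean CPM (x axis, weakest to strongest), for father-reared fish, orphaned fish and all fish. The father-reared line runs from 0.08 to -0.17, and the orphaned line stays near 0.

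The father-reared count also changed when single libraries were left out or when library numbers were taken into account. Leaving out right father-reared replicate 7 lowered it from 8004 to 4964 peaks (4.93%), and leaving out right replicate 4 raised it to 10317 (10.2%). Right replicates 7 and 8 carry the same family number, 20, and hold 36.5% and 36.2% of their counts in the strongest 10% of peaks. Without replicate 8 the count was 6258 (6.21%), and the pair was not left out together. Family numbers 7 and 19 gave only left father-reared fish, and 17 and 20 only right ones. The labels give library numbers and say that libraries were made in batches of 10 to 11, without naming them. In 3 stretches of 11 library numbers, left father-reared fish numbered 3, 4 and 1, and right ones 3, 0 and 5. With the stretch as a covariate the count was 5542 (5.5%), again with 0 called and a lowest adjusted p of 0.193 by edgeR. For the 4 left father-reared fish of the middle stretch, side and stretch cannot be told apart.

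Within orphaned fish, 5 left against 10 right, edgeR called 0 peaks (0%) with a lowest adjusted p of 1, and DESeq2 called 0. At an unadjusted p below 0.05 there were 2416 peaks (2.4%) by edgeR and 2056 by DESeq2, 1120 of edgeR's (1.11% of those tested) with the higher value on the left. Intervals lay within a 1.5-fold difference for 90.4% of the peaks. In 40 peaks (0.0397%) the sides did not overlap. The 3 peaks with the lowest unadjusted p were scaffold_95 143379, scaffold_95 140288 and scaffold_61 897443, with log2 differences of -3.68, -3.58 and -3.10, where 4 of the 5 high right libraries are orphaned. Without the 5 libraries these values were 0.10, 0.22 and 0.15, a rise that follows from how the 5 were chosen.

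The groupX peak at 13334191 came next among orphaned fish. Left orphaned fish held 4.09 to 5.41 CPM (median 4.81) and right ones 5.21 to 10.3 (median 7.85), which is -0.67 on the log2 scale (SE 0.16; adjusted p by edgeR 1). Father-reared fish had the opposite sign at this peak, with 5.19 to 8.46 CPM on the left (median 7.18) and 3.65 to 7.34 on the right (median 5.45), a log2 difference of 0.34 (SE 0.15).

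Whether the side difference itself varied with care was tested directly. For the difference of the 2 side contrasts edgeR called 0 peaks (0%), with a lowest adjusted p of 0.763 and 5252 peaks (5.21%) at an unadjusted p below 0.05. Among them 2961 (2.94% of those tested) had the higher left minus right value in father-reared fish. DESeq2 called 0, with 4956. The groupX peak above came first, with a log2 difference between the contrasts of 1.01 (SE 0.21). Next were groupIX 15590616 (0.95), scaffold_137 50894 (1.13), groupI 8129313 (1.27) and scaffold_89 10177 (-5.81). At groupIX 15590616 the left father-reared fish held 6.92 to 11.5 CPM and the right ones 4.54 to 7.83, whereas the left orphaned fish held 4.51 to 7.7 and the right ones 7.07 to 12.4. The scaffold_89 peak held between 0 and 24.0 CPM, with 0 to 0.39 CPM in all 10 right orphaned fish, so its fitted value depends on libraries at or near 0. Intervals of this contrast were wide, and 46.1% lay within a 1.5-fold difference.

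The 2 care groups share no fish, so their side differences can be laid side by side. Of the 8004 peaks at an unadjusted p below 0.05 in father-reared fish, 192 (2.4%) were also below it in orphaned fish, against 2.4% of all tested peaks. These 192 are 7.95% of the 2416 orphaned peaks, against 7.94% of all tested. Of the 192, 78 had the same sign in both groups and 114 the opposite sign. At an unadjusted p below 0.01 there were 6 shared peaks, all 6 with opposite signs. Across all tested peaks the 2 sets of log2 differences had a Pearson r of -0.05, a description over peaks that share libraries. Without the 5 right libraries r was 0.0027, and 75 of 194 shared peaks had the same sign. Peaks at a low p in one care group were thus neither more frequent nor mostly of the same sign in the other.

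Of 9 measures per library, the third principal component of log2 CPM (groupXIX left out, 4.88% of the variance) passed its test, in father-reared fish taken as independent. Left father-reared fish scored -13.3 to 75.6 (median 5.47) and right ones -25.9 to 3.32 (median -10.9). The groups overlapped below 3.32, and 4 left fish stood above every right one. Their means were 18.2 ± 29.7 (SD, n = 8) and -11.3 ± 10.9 (SD, n = 8), a difference of 33.8 with sex as stratum (exact permutation test, two-sided, p = 0.00351, adjusted p = 0.0316 over 9 measures).

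In orphaned fish the left scores were -7.38, -2.97, -1.52, -22.1 and -17.0, and the right ones ran from -18.0 to 28.9. The difference of -9.72 there did not pass (exact permutation test, p = 0.24). Between the care groups the side differences differed by 43.5 (permutation test, p = 0.00311, adjusted p = 0.028 over 9 measures). Over all 31 libraries the left minus right difference was 13.4 (permutation test, p = 0.108, adjusted p = 0.627). These tests take fish as independent. Paired within the 8 families with both sides, with the mean of each sex subtracted, the difference was 1.92. It did not pass there (exact sign-flip test, p = 0.641, adjusted p = 0.824 over 9 measures).

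The 4 high left father-reared fish were replicates 4, 5, 6 and 7, with scores of 75.6, 7.7, 27.8 and 45.6. They were all the father-reared fish of the middle stretch of library numbers, and carry the family numbers 7 and 19, in which no right brain was sampled. In the first stretch the left mean was -3.04 and the right mean -6.86, with 3 fish each. In the last stretch 1 left fish scored -1.85 and 5 right fish averaged -13.9. In the 4 father-reared families with fish of both sides, the left fish exceeded the right one by 4.49 on average (range -1.4 to 11.5), and in 3 of the 4 families it was the higher. Each of these pairs is a male and a female, and the values are without sex as stratum. Side, family and library stretch cannot be told apart for the 4 fish. Left father-reared replicates 4, 5, 6 and 7 held 2857578, 3321218, 5812322 and 3013093 counts, against a median of 4424554 over all libraries. Right father-reared replicate 5, with 3192015 counts, scored -25.9. Whether the scores follow depth was not tested. With each father-reared fish left out in turn the difference ran from 23.7 to 39.8 and the exact permutation p from 0.0017 to 0.0145. Fish of the same family number were not left out together. On the third component of the 5000 most variable peaks, left father-reared replicates 4, 5, 6 and 7 scored -22.4, 4.69, -8.98 and 5.08. Right father-reared fish ran from -17.3 to 29.5 there. That component need not be the same one, and its side difference within father-reared fish was not tested.

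**Figure D5:**
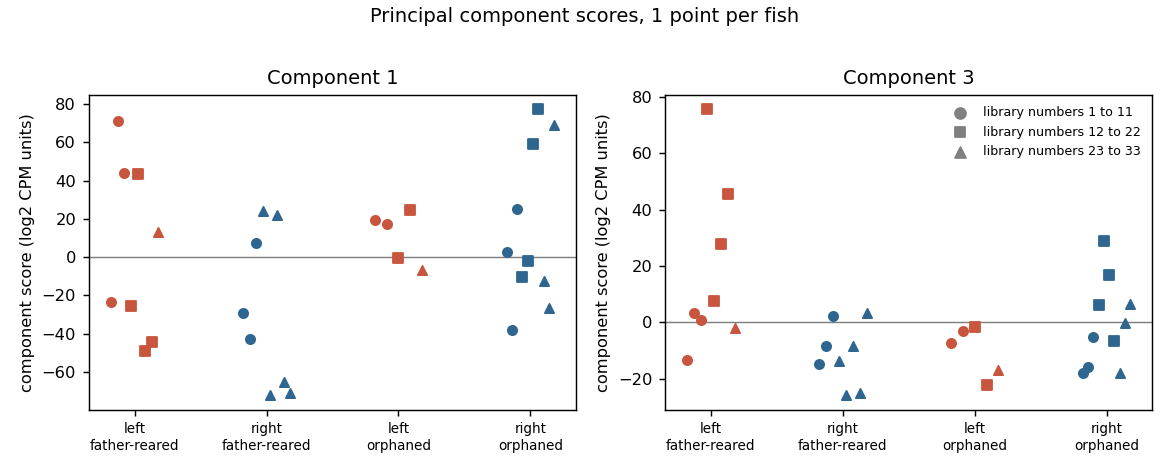
Scores of each library (y axis, log2 CPM units) on components 1 and 3 in the 4 side-by-care groups (x axis), with left in red, right in blue and the marker showing the stretch of library numbers. On component 3 the 4 squares of left father-reared fish lie between 7.7 and 75.6, and the 8 right father-reared fish between -25.9 and 3.32.

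The other 8 library measures did not pass in either care group or over all fish. The adjusted p over all fish was 0.627 or more for each of the 9. On component 1 (18.4% of the variance) the left averaged 6.39 ± 35.8 (SD, n = 13) and the right -4.61 ± 45.5 (SD, n = 18), a difference of 14.7 with care and sex as strata (permutation test, p = 0.347). The spread of each library about its side-by-care group was 0.30 ± 0.04 (SD, n = 13) on the left and 0.31 ± 0.03 (SD, n = 18) on the right (permutation test, p = 0.26).

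Libraries of the same side and of opposite sides did not differ detectably in likeness. Among fish of the same care and sex, deviations from the group mean correlated at -0.145 ± 0.134 (SD) in 50 same-side pairs and -0.146 ± 0.128 (SD) in 55 opposite-side pairs. The means differed by 0.0014 (permutation test of side within care and sex, p = 0.958). Between fish with the same family number the correlation was 0.0716 ± 0.171 (SD) in 7 same-side pairs and 0.0697 ± 0.119 (SD) in 8 opposite-side pairs (exact permutation test, p = 0.982). The pairs of the same care and sex come from groups whose own mean was subtracted, which makes their correlations negative by construction, so they cannot be set against those of the family pairs.

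The side difference was also set against sex, since the left fish were mostly female. For the difference between the side contrasts of males and females edgeR called 0 peaks (0%), with a lowest adjusted p of 0.657 and 3446 peaks (3.42%) at an unadjusted p below 0.05. Among them 2042 (2.03% of those tested) had the higher left minus right value in males. DESeq2 called 0 with a lowest adjusted p of 0.145, and had 3149. The first peak, groupI 22296625, held 3.15 to 6.41 CPM in 5 left males and 1.55 to 5.51 in 10 right males, but 1.36 to 3.21 in 8 left females and 3.42 to 6.63 in 8 right females. Females of the 2 sides did not overlap there, males did, and the contrasts differed by 1.52 (SE 0.31) on the log2 scale. The other 4 peaks were groupXI 10423492 (-0.85), groupIV 3062965 (0.79), groupV 7207999 (1.08) and scaffold_1693 25 (2.05), each with an edgeR adjusted p of 1.

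Sums over longer stretches gave no call either. Of 973 regions (windows of 1000000 bases on linkage groups, and whole scaffolds) edgeR called 0 (0%), with 32 (3.29%) at an unadjusted p below 0.05 and a lowest adjusted p of 0.951. The 3 with the lowest p were scaffold_1240 (log2 difference -1.55, SE 0.46), scaffold_1029 (-0.43, SE 0.15) and scaffold_503 (0.35, SE 0.13).

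Summed over each of the 21 linkage groups and over all scaffolds, 0 of 22 units (0%) passed, and 0 had an unadjusted p below 0.05. The lowest adjusted p by edgeR was 0.842, for groupXI (log2 difference -0.016, SE 0.0080) and groupIX (-0.017, SE 0.0094). On groupXIX, the sex chromosome of this species, the difference was 0.0016 (95% interval -0.014 to 0.018). Peaks there had an unadjusted p below 0.05 in 3.57% of 4345 cases, against 4.03% of 88466 on the other linkage groups and 4.59% of 7997 on scaffolds.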

How the data were processed

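The authors deposited raw read counts, not normalized, for 31 libraries in 1 shared set of 102149 peaks. The submitters' processing notes name Bowtie2 2.3.5.1, MACS2 2.2.5 and DiffBind 3.14.0, beside FastQC 0.11.8, Picard 2.10.1 and SAMtools 1.9. Genome build, Tn5 read shift and duplicate treatment: not given in the sources used here. PCR copies were not told apart by molecular identifiers, so the depth of 2857578 to 10540612 counts limits counting error only.

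Side, care and sex came from the labels. Peaks with low counts were removed (edgeR's filterByExpr, minimum count 10), which took out 1341. Counts were TMM-scaled and fitted by quasi-likelihood (edgeR 4.0.16 under R 4.3.3): side with sex and care as covariates, side within care from 4 group means with sex, and side within sex likewise. DESeq2 1.42.0 and limma 3.58.1 served for alternatives, as did other scalings, filters, covariates, replicate blocks and leaving out each fish. Library measures used permutation of side within care-by-sex groups (100000 draws, or exact within care groups; SciPy 1.17.1). P values take fish as independent.

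Named peaks are the 10 lowest unadjusted p for side, the 5 lowest for each other contrast, and the 5 highest and 5 lowest log2 differences with a mean of at least 1 CPM; others are marked as chosen after their values were seen. The comparison, its lists and its tests were chosen with earlier results of these data known. Genes of left-right asymmetry were not analysed here, because the only gene table used is of a different assembly.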

Additional observations from a re-analysis of the deposited data

Results flagged for a closer look

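In groups of 5 to 10 fish, 1 value stood far from the rest of its group (Dixon's test at the 95% level) in 17 of 148 groups examined (11.5%), where chance gives about 1 in 20. Most of the groups are of peaks named for a low p or an extreme difference, a choice that can bring in outlying values. The groups are also not independent, since the same fish recur. The share can therefore not be set against 1 in 20.

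Right father-reared replicate 2, 1 of the 5 right libraries described above, was the high value at scaffold_95 143379 (177 CPM), scaffold_95 140288 (192 CPM), scaffold_61 897443 (101 CPM) and groupVII 10558814 (17.1 CPM). Left father-reared replicate 2 was high at groupVII 10558814 too, with 5.56 CPM. Right orphaned replicate 7, another of the 5, was high at groupIX 15590616 (12.4 CPM) and groupXI 10423492 (13.3 CPM).

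Right father-reared replicate 5 was high at scaffold_1240 3458 (11.9 CPM) and on component 4 (84.2). Other high values were right father-reared replicate 7 at groupII 15664949 (10.2 CPM), left father-reared replicate 1 at scaffold_61 935987 (8.82 CPM), left orphaned replicate 4 at groupVI 13366082 (12.8 CPM), right father-reared replicate 1 at groupVI 8283400 (1.42 CPM) and right orphaned replicate 2 at groupI 8129313 (13.8 CPM). Left father-reared replicate 1 was the deepest library (10540612 counts), left father-reared replicate 4 had the highest share of counts on scaffolds (9.44%), and left orphaned replicate 1 had a low spread about its group (0.232).

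The side difference of component 3 differed between the care groups by 43.5 (permutation test, p = 0.00311, adjusted p = 0.028 over 9 measures), with 4 left father-reared fish of 1 stretch of library numbers behind the high scores. That test took fish as independent, and the 4 carry the family numbers 7 and 19.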

How the results depend on the processing

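The count of called peaks was 0 for side, for side within each care group and for the 2 interactions under DESeq2, both other scalings, both other filters, a robust prior, the strength trend removed, the library stretch or no covariates, and with each of the 31 fish left out (0 to 0). It was also 0 for regions and linkage groups under the alternatives run. Without single fish the unadjusted count for side ran from 3018 to 5212. The lowest adjusted p by edgeR for side was 0.989 with all fish and 0.057 without right father-reared replicate 8. Within orphaned fish it was 0.0623 without left orphaned replicate 5.

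Pairing by family number is an inference from the fish identifiers, so blocks are alternatives. Not every pair of deviations correlated above 0.1. The 8 opposite-side pairs averaged 0.0697 (-0.165 to 0.181) over all peaks and 0.233 (-0.0067 to 0.377) over the 5000 most variable. The 7 same-side pairs averaged 0.0716 (-0.13 to 0.328) over all peaks and 0.265 (0.12 to 0.406) over the 5000 most variable. With family as a fixed replicate block 8 of 100808 tested peaks passed for side, 11 within orphaned fish and 1 for side by care. Side rests there on the 8 families with both sides, 4 father-reared and 4 orphaned. Of the orphaned ones, families 11 and 22 each hold 1 of the 5 right libraries. In the 8 families with both sides, paired and filtered anew, 28 of 100908 passed. Without families of the 5 right libraries (chosen after seeing the data) it was 11 of 100986. As a random replicate block 0 passed, and the sign turned at groupXIV 13106624 (-0.32).

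Without the 5 right libraries the pooled values turned at scaffold_95 143379 (0.29), scaffold_95 140288 (0.32), scaffold_61 897443 (0.25) and groupVII 10558814 (0.15), and those of orphaned fish at the first 3 (0.10, 0.22, 0.15). A rise at these peaks follows from how the 5 were chosen. Peaks shared between care groups with the same sign numbered 0 at p below 0.01. Among measures that passed no test, the groupXIX share turned to -0.00068 in the 8 families (replicate block) and was 0.58 in library stretch 3; the scaffold share turned to -0.023 without strata and component 4 to 3.18 in the families; with each fish left out the scaffold share ran from -0.041 to 0.036 and component 4 from -6.8 to 4.69. In stretch 2 the strongest-peak share moved to 2.92 and component 1 to -39.6, in stretch 3 the spread to -0.052, and the same-side likeness turned to -0.0097 over 5000 variable peaks. Values within a stretch are plain differences of means, without care or sex as strata, so they mix side with sex and care. In stretch 3 the groupXIX share was 4.47 in the left fish, all female. There it was 4.39 to 4.5 in right females and 3.49 to 3.66 in right males. In stretch 2 no right fish was father-reared. Beyond that, the cause was not tested. In the pooled test the intervals of 98.5% of the peaks lay within a 1.5-fold difference.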

Other observations

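The peaks called with family as a block fall into those that follow the 5 right libraries and those that do not. All 8 peaks called for side with the fixed replicate block, and all 11 within orphaned fish, were lower on the left and belong to the 24 peaks that correlate with scaffold_95 140288. In the 8 families with a left and a right fish, 12 of the 28 called peaks belong to them, and of the 16 others 12 were higher on the left. Of the 5474 peaks at an unadjusted p below 0.05 in that fit, 61.9% were higher on the left. None of the 11 peaks called in the 5 families that remain without the 5 libraries belongs to the 24, and 8 of these 11 were higher on the left. The share there was 48.2% of 5831 peaks at an unadjusted p below 0.05. Directions are those of the fitted values. All the called peaks are named or counted after their values were seen.

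Of the 16 others, 15 also passed the filter on low counts over all fish, and 2 of these 15 were higher in the left fish of all 8 families. The same 8 pairs served to call these peaks, so agreement among the pairs follows in part from the choice. How many of all tested peaks were higher on the left in all 8 was not counted. At the rest of the 15 the families were split, as at scaffold_178 41224, where the left was higher in 4 of 8. At groupXVI 4786332 the left fish held 3.52, 7.48, 3.87, 6.88, 8.71, 9.34, 7.79 and 7.5 CPM, and the right fish of the same families 2.6, 3.66, 2.02, 6.15, 2.48, 5.63, 6.36 and 4.37. At groupI 26494191 the left fish held 9.4, 11.8, 6.78, 4.85, 7.7, 6.96, 8.9 and 4.32 CPM, and the right fish 5.38, 6.64, 4.54, 2.6, 4.44, 4.41, 4.57 and 3.77. Their log2 differences in the paired fit were 0.87 and 0.74, with edgeR adjusted p values of 0.0139 and 0.0193.

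In the 15 fish of the other families, 5 left and 10 right, the means went the other way at both peaks, with 3.15 on the left and 5.09 CPM on the right at groupXVI 4786332, and 4.49 and 6.11 at groupI 26494191. Of the 15 peaks, 7 had the same direction in these other fish. Those are plain means, without care or sex as covariates. The 5 left fish are left father-reared replicates 4, 5, 6 and 7 and left orphaned replicate 3, all of the middle stretch of library numbers. Side is thus mixed with care and stretch there, and the comparison cannot decide whether the paired calls recur. Over all 31 fish the adjusted p of both peaks was 0.989.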
